A study of Arabidopsis thaliana with 77 samples.

Results

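A missense change swaps an amino acid of a protein and keeps the rest of its sequence. The genes described here are the nuclear protein-coding genes of Arabidopsis thaliana in which 1 of 4 ddm1 episuppressor lines carried a homozygous missense call that no other sequenced library shared. The genes were chosen by the calls themselves. A call was taken where its genotype was homozygous for the changed base, its phred-scaled quality was at least 50 and its depth was at least 10 reads. It also had to stand, with the same called base or bases, in the calls of 1 episuppressor line alone among 5 libraries. Genes that a line also truncated by a new stop codon or hit at a splice site were to be left out, and no gene that met the other limits was. The rule found 283 of 27444 genes (1.03%), with 285 residue changes made by 283 base changes. Line 2-69 held 102 genes (0.372% of all genes), line 2-20 held 18 (0.0656%), line 3-72 held 83 (0.302%) and line 3-75 held 81 (0.295%). These counts are what the rule selected and carry no test.

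The 4 episuppressor lines carried the genotype rdr1 rdr2 rdr6 ddm1 in the ecotype Columbia, and the fifth library was labelled rdr1 rdr2 rdr6 in the same ecotype. All 5 libraries were thus mutant in 3 RNA-dependent RNA polymerase genes by label. Each was 1 library of genomic DNA from rosette leaves of soil-grown plants aged 4 weeks, read as pairs, so a line has no replicate and its values describe 1 plant sample. The rest of the series, with 77 samples in all, measures DNA methylation and chromatin and was not used. The libraries held between 6724 and 7329 calls on the 5 chromosomes, with median depths from 17 reads in 3-72 to 37 reads in 2-69. The DDM1 change C615Y was homozygous in the 4 lines, with 23 changed reads in 2-69, 14 in 2-20, 10 in 3-72 and 7 in 3-75 and 0 reference reads. It was heterozygous in the library labelled rdr1 rdr2 rdr6, where 9 reads had the changed base and 10 the reference base, which goes against that label. On its own that library had 0 homozygous missense genes within the same limits (0%), and it serves here only to set shared calls aside.

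DDM1 is a chromatin remodeller that plants need to keep DNA methylation on transposons, and RDR1, RDR2 and RDR6 copy RNA into the double strands from which small RNAs are cut. A recessive change shows in the plant only where no intact copy of the gene remains. Proteins tolerate some residue swaps and not others. The BLOSUM62 score used below rates each swap by how often it is seen between related proteins, and a negative score marks a swap seen less often than by chance.

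Genes with known roles in RNA silencing, DNA methylation, chromosome structure and DNA repair come first, since the study concerns small RNAs and centromeres. Windows of 45 bases of the TAIR10 reference around each change are shown from 5′ to 3′ on the coding strand, with the affected codon in capitals. The reference sequence is from RefSeq. The 4 gene lists used were made with earlier results of these data known, so their shares cannot show an excess and were not tested. The RNA silencing list matched 51 genes and held 3 of the 283, THO2, XRN4 and SQN. These make up 5.882% of the list, against 1.03% for all genes. THO2 is a subunit of the THO complex, which packages messenger RNA for export. XRN4 is the cytoplasmic 5′ to 3′ exoribonuclease that degrades uncapped RNA. SQN is the cyclophilin 40 that assists the loading of small RNAs into ARGONAUTE1.
THO2 (chr1:8750057-8750101, plus strand, 2-69, P767S, CCC to TCC): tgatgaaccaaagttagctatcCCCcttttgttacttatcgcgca
XRN4 (chr1:20355862-20355906, plus strand, 2-69, P722S, CCT to TCT): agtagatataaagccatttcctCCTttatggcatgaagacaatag
SQN (chr2:6878682-6878726, minus strand, 3-75, D295N, GAT to AAT): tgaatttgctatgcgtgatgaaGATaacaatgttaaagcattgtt
In 2-69, THO2 had 40 changed and 0 reference reads in coding exon 22 of 33. XRN4 had 39 changed and 0 reference reads in coding exon 21 of 22 of the same line. In 3-75, SQN had 14 changed and 0 reference reads. Both changes of 2-69 put serine in place of proline (BLOSUM62 -1), and the change in SQN removed an acidic charge (BLOSUM62 1).

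The list of DNA methylation and chromatin genes matched 52 genes and held 2 of the 283. These make up 3.846% of the list, against 1.03% for all genes. VIM3 encodes a RING-finger protein that binds methylated DNA and acts in the upkeep of CG methylation. ASHH1 encodes a SET-domain histone methyltransferase that promotes flowering.
VIM3 (chr5:15839146-15839190, minus strand, 3-72, A253V, GCT to GTT): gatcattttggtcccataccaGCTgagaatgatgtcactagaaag
ASHH1 (chr1:28790469-28790513, minus strand, 3-75, T319I, ACC to ATC): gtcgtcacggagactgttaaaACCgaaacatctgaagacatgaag
VIM3 had 16 changed and 0 reference reads in 3-72. Its nearest paralog VIM4, with 91.99% identity, has the same alanine at the aligned position. ASHH1 had 20 changed and 0 reference reads in 3-75, in the last of its 9 coding exons, and had no paralog within the limits used.

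The list of centromere, kinetochore and cohesin genes matched 29 genes and held 2 of the 283, SMC5 and MIM, which is also called SMC6B. These make up 6.897% of the list, against 1.03% for all genes. SMC5 and SMC6 form the core of a ring-shaped complex of sister chromatid cohesion and DNA repair. The gene emb1379 (also known as NSE1 in Arabidopsis) encodes a further subunit of that complex. It was on no list, and is named because another line also altered it.
SMC5 (chr5:5199044-5199088, plus strand, 3-75, L953F, CTC to TTC): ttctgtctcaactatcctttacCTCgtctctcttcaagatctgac
MIM (chr5:24717246-24717290, minus strand, 2-20, P617S, CCA to TCA): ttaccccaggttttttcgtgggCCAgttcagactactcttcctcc
emb1379 (chr5:7188071-7188115, minus strand, 2-20, L159F, CTC to TTC): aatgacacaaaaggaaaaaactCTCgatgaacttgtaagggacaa
The window of MIM holds 9 bases outside the coding sequence. MIM had 19 changed and 0 reference reads in 2-20, and its paralog SMC6A, with 73.93% identity, has the same proline. The emb1379 change had 17 changed and 0 reference reads in the same line. In 2-69 emb1379 carried another change, R18Q, which was heterozygous with 13 changed and 9 reference reads. SMC5 had 15 changed and 0 reference reads in 3-75. Line 2-20 thus carried homozygous changes in 2 subunits of the complex, and both genes lie on chromosome 5, as did 17 of its 18 genes.

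The list of meiosis and DNA repair genes matched 35 genes and held 4 of the 283. These make up 11.43% of the list, against 1.03% for all genes. FANCM is a helicase that limits crossovers at meiosis, and MUS81 is an endonuclease that cuts branched DNA. RECQSIM is a RecQ helicase, and MEI1 carries BRCT repeats and is needed for meiosis.
FANCM (chr1:13090939-13090983, plus strand, 2-69, T214I, ACT to ATT): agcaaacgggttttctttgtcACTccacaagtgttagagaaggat
MUS81 (chr4:15028724-15028768, plus strand, 2-69, P54L, CCC to CTC): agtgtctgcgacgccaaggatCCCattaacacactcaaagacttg
RECQSIM (chr5:9797825-9797869, minus strand, 3-72, S234F, TCT to TTT): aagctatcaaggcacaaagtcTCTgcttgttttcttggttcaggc
MEI1 (chr1:29061070-29061114, plus strand, 3-75, L682P, CTG to CCG): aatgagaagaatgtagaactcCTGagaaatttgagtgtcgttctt
In 2-69, FANCM had 28 changed and 0 reference reads, and MUS81 had 18 changed and 0 reference reads. RECQSIM had 12 changed and 0 reference reads in 3-72. MEI1 had 18 changed and 0 reference reads in 3-75, and was the only gene of the 283 that gained a proline. Its change and that of MUS81 had a BLOSUM62 score of -3, the lowest found, as did 28 changes in all. AT4G03130 (D654N, 2-69, 32 changed reads), annotated as a BRCT-domain DNA repair protein, and AT5G49110 (V238I, 3-72, 11 changed reads), annotated as similar to Fanconi anemia group I, were on no list and were picked out after their values were seen.

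Most calls had no read for the reference base. Across the 283 base changes, 268 had 0 high-quality reads for the reference base and all 283 had changed reads on both strands. In 2-69 the changed base had between 16 and 60 reads (median 32), in 2-20 between 9 and 26 (median 21), in 3-72 between 8 and 193 (median 14) and in 3-75 between 10 and 63 (median 19). The order of the medians followed the depth of the libraries. Median quality was 168 in 2-69, 146.5 in 2-20, 121 in 3-72 and 145.5 in 3-75. In each line, 0 homozygous missense calls failed on quality alone.

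**Figure D1:**
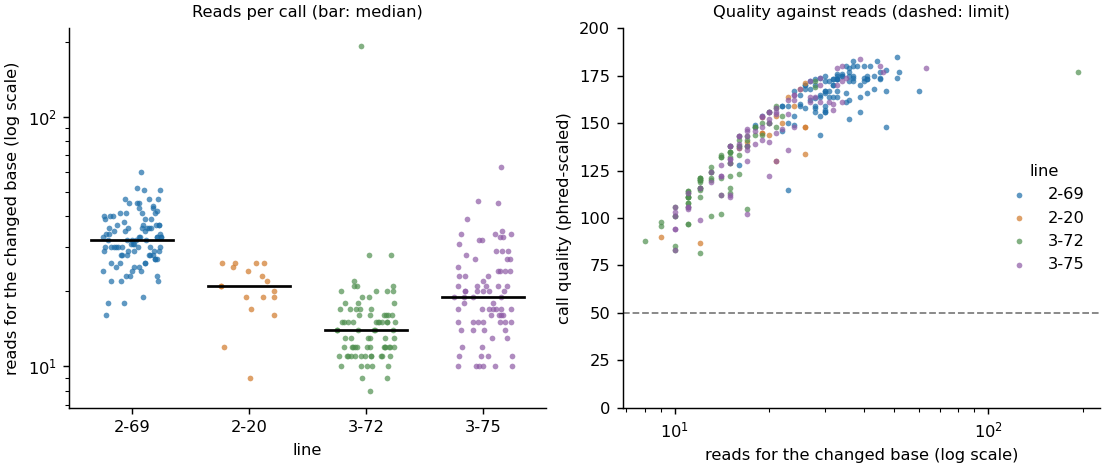
Each point is 1 of the 283 base changes. The left panel plots reads for the changed base (log scale) by line with a bar at the median, and the right panel plots call quality against those reads, with the limit of 50 dashed. Line 3-72 has the lowest median, 14 reads, and 1 call far above the rest at 193 reads.

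Close to the limits stood TIC110 in 3-72 (E901K, quality 88, depth 10), the channel protein of the chloroplast inner envelope, and TKI1 in 3-75 (S311N, quality 83, depth 10). In 2-20 they were AIL5 (A111V, quality 90, depth 11) and HB25 (A131T, quality 87, depth 13), and in 2-69 LURE1.2 (E49K, quality 115, depth 28) and AT4G22475 (S297F, quality 128, depth 17). The lowest quality in 3-72 was 81.5, in AT5G03130 (R71Q, depth 14). Just outside lay AACT1 in 3-72 (C175Y, quality 98, depth 9) and AT4G37480 in 3-75 (A117T, quality 78, depth 9). Depth alone left out 10 calls of 3-72 and 6 of 3-75, and 0 of 2-69 and 2-20. All calls lost to depth alone were thus in 3-72 and 3-75.

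Of the 283 base changes, 280 (98.94%, 95% Wilson interval 96.93 to 99.64) were G/C to A/T. Line 2-69 had 100 of 100 of this kind and line 2-20 had 18 of 18. Line 3-72 had 81 of 83, and line 3-75 had 81 of 82. The exceptions were I245L in UBP2 and I172L in AT2G08986, both in 3-72, and L682P in MEI1. Codon positions were counted on the coding strand once per gene hit, so a base change in overlapping genes counts in both. Of these, 97 G to A and 48 C to T changes fell at the first codon position. At the second fell 53 G to A and 80 C to T changes, and at the last 4 G to A changes. Most changes at a last codon position are silent and so make no missense call.

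Glutamate to lysine was the most frequent change with 25, followed by alanine to valine (24), alanine to threonine (22), proline to serine (21), aspartate to asparagine (20) and proline to leucine (19). Leucine to phenylalanine and serine to phenylalanine came to 17 each. Glutamate to lysine made up 8.772% and proline to leucine 6.667% of the observed changes. If every G/C to A/T missense change possible in the annotated coding sequences were equally frequent, they would make up 7.846% and 5.629%. Proline was lost in 40 changes (14.04%, against 11.26% of possible changes) and glycine in 36 (12.63%, against 14.94%). Glycine losses numbered 18 in 2-69, 0 in 2-20, 10 in 3-72 and 8 in 3-75. A basic residue became uncharged or histidine in 22 changes (7.719%, against 4.788% of possible ones). Cysteine was gained in 6 proteins and lost in 1, the MATE-family efflux carrier DTX1 (C234Y in 3-72). BLOSUM62 was negative in 117 changes (41.05%), against 40.46% of possible ones, zero in 75 and positive in 93. These shares were not tested.

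**Figure D2:**
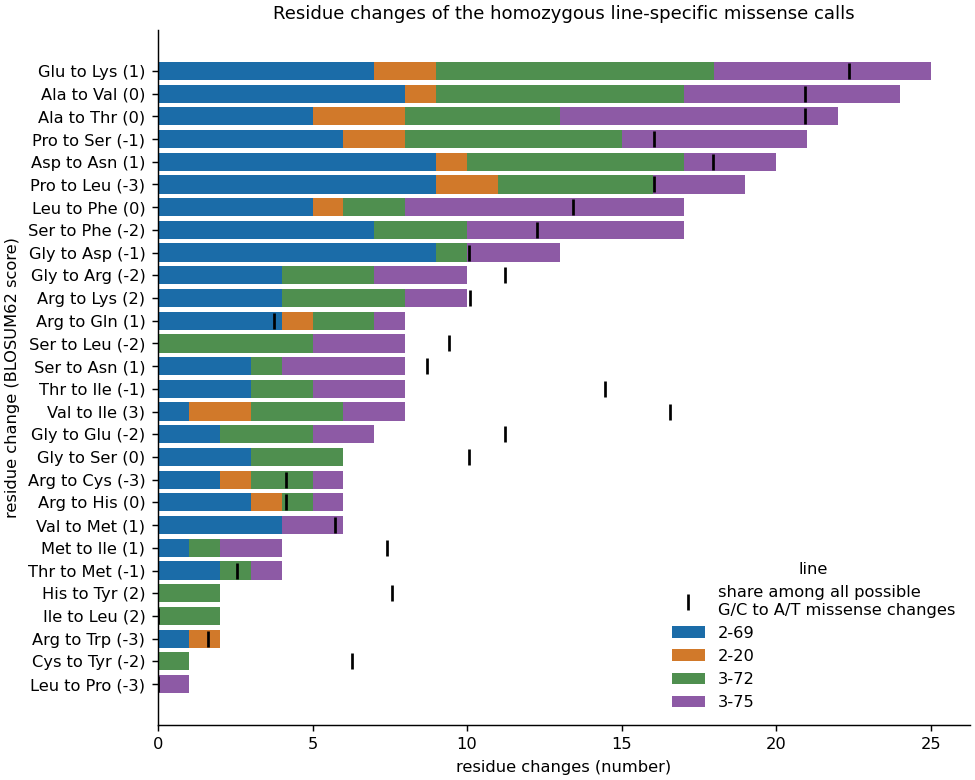
Bars count the residue changes by kind and line, with the BLOSUM62 score in brackets. Black ticks show the number that the share among all possible G/C to A/T missense changes would give, and glutamate to lysine leads with 25.

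The bases beside the changed guanine, read on the strand that holds it, were not used by the rule. A thymine preceded it at 29 of 280 sites (10.36%, 95% Wilson interval 7.309 to 14.48), whereas 29.59% of all possible missense sites have a thymine there. Line 2-69 had it at 6 of 100 sites, line 2-20 at 0 of 18, and lines 3-72 and 3-75 at 11 of 81 and 12 of 81. The share was below that of all possible sites in each line. For 2-20, a count of 0 of 18 allows a share of up to 17.6% by the same interval. Over all lines, guanine preceded it at 31.79% of sites against 24.53% of possible ones, cytosine at 20.71% against 14.01%, and adenine at 37.14% against 31.87%. These were not seen in each line. In 3-75 guanine (24.69%) and cytosine (14.81%) lay near the possible shares, and in the other lines above them. Adenine lay below its possible share in 2-20 (27.78%) and 3-72 (29.63%), and above it in 2-69 and 3-75. Heterozygous missense calls of the 4 lines had the thymine at 35 of 351 sites (9.972%). At homozygous G/C to A/T calls of the 4 lines outside coding sequence it preceded 175 of 794 sites (22.04%, 95% interval 19.3 to 25.05), against 37.08% of all guanines outside coding sequence. After the changed guanine, thymine stood at 16.79% of sites against 24.19% of possible ones. It followed 19.37% of the heterozygous missense sites (95% interval 15.58 to 23.83) and 24.94% of the homozygous sites outside coding sequence. The share after all guanines outside coding sequence was not computed. These intervals cover counting error only, and sites of 1 line share their origin.

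The genes were unevenly spread over the chromosomes. In 2-69 chromosomes 1 to 5 held 27, 16, 5, 23 and 31 genes, in 2-20 they held 0, 0, 0, 1 and 17, in 3-72 15, 20, 7, 9 and 32, and in 3-75 30, 13, 3, 19 and 16. Chromosome 3 holds 19.81% of all coding length and had 4.902% of the genes of 2-69, 8.434% of those of 3-72 and 3.704% of those of 3-75. Heterozygous missense calls of the same limits were found in 127 genes of 2-69 (0.463% of all genes), 105 of 2-20 (0.383%), 82 of 3-72 (0.299%) and 42 of 3-75 (0.153%). On chromosome 3 they hit 53 genes of 2-69, 22 of 2-20, 25 of 3-72 and 17 of 3-75. Of the 283 homozygous base changes, 271 lay in a run of at least 5 consecutive line-specific homozygous calls along a chromosome. The longest run had 71 calls in 2-69, 51 in 2-20, 42 in 3-72 and 51 in 3-75. Calls in a run are linked and are not independent hits. Of the base changes, 36 lay within 3 Mb of the approximate position of a centromere and 27 within 5 Mb of DDM1. The share of all coding length in these stretches was not computed, so neither count shows an excess or a lack. AT3G50350 and AT5G03130 in 3-72 stood alone, with no homozygous neighbour, and both had reference reads, 3 beside 17 changed reads and 2 beside 12.

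**Figure D3:**
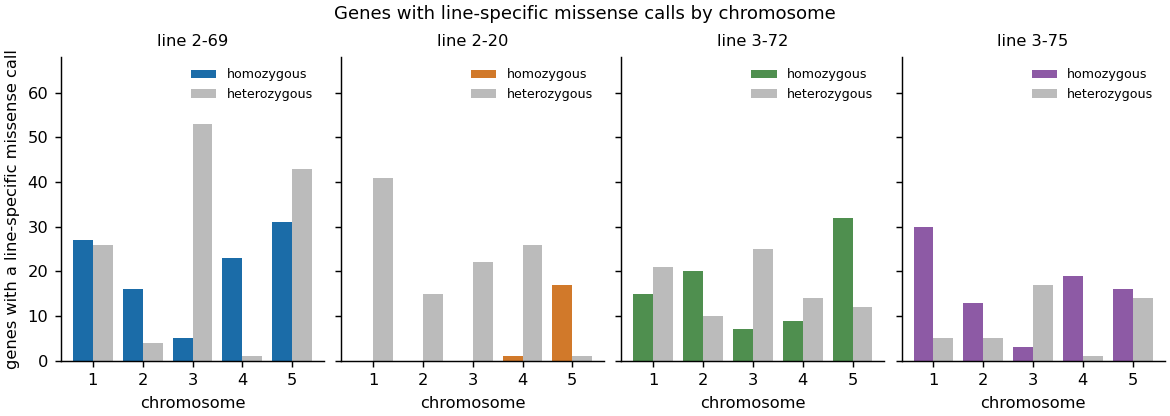
Bars count genes with a line-specific missense call by chromosome, homozygous in colour and heterozygous in grey, with 1 panel per line. In 2-20, 17 of 18 homozygous genes are on chromosome 5, where 1 gene is heterozygous.

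Per line, the genes named next are mainly those with the lowest BLOSUM62 scores and the best-supported ones of each gene family. In 2-69, HK3, a cytokinin receptor of the histidine kinase family, carried R271W with 30 changed and 0 reference reads, and the paralog HK2 has the same arginine.
HK3 (chr1:9489051-9489095, plus strand, 2-69, R271W, CGG to TGG): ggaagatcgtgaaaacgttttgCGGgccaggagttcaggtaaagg
This window holds 1 base outside the coding sequence. The same line altered CRF2, a cytokinin response transcription factor (S50F, 45 changed reads), and CLV2, a receptor-like protein of stem cell signalling in the shoot apex (S281F, 28 changed reads). It altered STY46, a kinase that phosphorylates chloroplast transit peptides (R28C, 22 changed reads), and D6PK, a kinase of auxin efflux carriers (P385S, BLOSUM62 -1, 33 changed reads). RLP11, a receptor-like protein, had R350C with 41 changed reads. Proline became leucine in THY-1 (P147L), which makes thymidylate, in PEP (P117L), a KH-domain RNA-binding protein, and in ADK (P60L), annotated as adenosine kinase. THY-1 and ADK have the same proline in their nearest paralogs, while the paralog of PEP, FLK, has threonine. GulLO4, annotated as a lactone oxidase, had G156R with 34 changed reads. Of the ubiquitin and proteasome genes of this line, CUL3B, a cullin scaffold of ubiquitin ligases, had R238K with 32, ATCRT1, a RING-type protein, R327Q with 44, and RPN1B, a regulatory subunit of the proteasome, V284I with 30. UTr7, annotated as a nucleotide sugar transporter, had G209D with 26. Also in 2-69, FTSZ1-1 (A152V, 37 changed reads) and MIND (R227K, 33 changed reads) encode parts of the chloroplast division machinery, a pair noticed after the values were seen. TMK1, a receptor kinase linked to auxin and likewise picked out afterwards, had L388F with 25 changed reads. PAL1, the entry enzyme of the phenylpropanoid pathway, had D574N with 38 changed reads. GRL, a subunit of the SCAR/WAVE regulatory complex of actin, had V515M with 27 changed reads, and its partner SCAR2, picked out for that reason, had V576M in 3-75 with 23.

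In 2-20, GNC, a GATA factor of chlorophyll synthesis, carried P44L with 26 changed and 0 reference reads. Its nearest paralog CGA1 has phenylalanine at the aligned position.
GNC (chr5:22991199-22991243, minus strand, 2-20, P44L, CCT to CTT): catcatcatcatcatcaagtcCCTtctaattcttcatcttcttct
MYR1, a Myb-related transcription factor, had R390C with 26 changed reads, and its paralog MYR2 has the same arginine. VAR3, a chloroplast zinc-finger protein, had P566S with 20. RS41, a serine- and arginine-rich splicing factor, had R76H with 21. AIL5 and HB25, both transcription factors of development, had 9 and 12 changed reads, the fewest of this line. RPS6, a disease resistance protein of the TIR-NBS-LRR class, had D930N with 19, and OXP1, the 5-oxoprolinase of glutathione turnover, had E564K with 16. AT5G26850 had A878T with 19 changed and 0 reference reads in 2-20, and 3-75 had another change in it, P476S, which was heterozygous.

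Among the 12 proline losses of 3-72 were those in RD21B, a cysteine protease (P450L, 28 changed reads), in AAE7, an acyl-activating enzyme (P256L, 15), in HCF208, a chloroplast protein needed to assemble the cytochrome b6f complex (P241L, 11), and in GPRI1. GPRI1, better known as GLK1, is a transcription factor of chloroplast development and had P380L with 15 changed reads. GLK2 has the same proline. ATSRL1, a PRP38-family protein, had R211C with 16 changed reads, PERK4, a receptor kinase, G266R with 28, and IAMT1, which methylates auxin, S91F with 15. ETP2, an F-box protein that targets the ethylene regulator EIN2, had S61L with 15. SLO2 (A156V, 12 changed reads) and MEF3 (H33Y, 20 changed reads) are pentatricopeptide repeat proteins of RNA editing in organelles. WRKY17, a transcription factor, had G205S with 10 changed reads. BSK8, annotated as a kinase with tetratricopeptide repeats, had E356K with 21, ABCG3, annotated as an ABC-type transporter, P360S with 12, and RUS2, of unknown function by its annotation, D55N with 10.

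In 3-75 several changed genes act in transcription by RNA polymerase II or in messenger RNA processing, a grouping made after the values were seen and given no test. By keyword, RNA processing genes numbered 4 in 2-69, 1 in 2-20, 2 in 3-72 and 3 in 3-75. Of the genes named below, that keyword took in RBP47A and missed NRPB1, TFIIS, SFR6, CPSF30 and AT5G18420. The count therefore cannot show whether the group is particular to 3-75. NRPB1 encodes the largest subunit of RNA polymerase II.
NRPB1 (chr4:16967452-16967496, minus strand, 3-75, P77S, CCG to TCG): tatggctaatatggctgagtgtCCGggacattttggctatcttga
It carried P77S with 39 changed and 0 reference reads, in coding exon 2 of 13. TFIIS, the elongation factor that restarts arrested polymerase, had E10K with 27 changed reads, and SFR6, the Mediator subunit MED16, had L1117F with 14. CPSF30, a subunit of the polyadenylation complex, had P192L with 24, and AT5G18420, annotated as a CCR4-NOT subunit, had V196M with 19. RBP47A, an RNA-binding protein, had S147F with 17. DUO3, a regulator of male germ cells, had G892E with 17. Outside this group, SULTR1;2, a sulfate uptake carrier of roots, had G260D with 19, and CYP79B2, an enzyme of indole glucosinolate synthesis, had E404K with 21. SHM7 (P143L, 18), MKK9 (S134L, 29), UMAMIT22 (S233L, 21), UGT72B3 (S49F, 20), LRR XI-23 (S203L, 17) and GGR (R138C, 46), with changed reads in brackets after the change, also had BLOSUM62 scores of -3 or -2. PREP2, a presequence protease, had P175S with 23 changed reads, and BG_PPAP, a beta-1,3-glucanase, had L132F with 35. AT4G29770, annotated as a target of trans-acting small RNAs and picked out for that, had A230T with 17 changed reads.

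AT2G29210, a PWI-domain splicing factor by its annotation, was the only gene homozygous in 2 lines at different residues.
AT2G29210 (chr2:12559721-12559765, plus strand, 3-72, R204C, CGC to TGC): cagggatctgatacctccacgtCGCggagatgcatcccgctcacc
AT2G29210 (chr2:12560535-12560579, plus strand, 3-75, P404S, CCA to TCA): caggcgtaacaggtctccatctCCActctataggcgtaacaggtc
A further change in it, R179H, was heterozygous in 2-20, with 9 changed and 5 reference reads. Its depth at P404S was 67 reads and at R204C 13, where the median depth over the homozygous missense calls described here was 20 in 3-75 and 14 in 3-72. The first window holds 3 bases outside the coding sequence. In 3-75, BGLU9, a beta-glucosidase, had the only 2 homozygous changes within 1 gene of 1 line.
BGLU9 (chr4:13859049-13859093, minus strand, 3-75, S261F and T264I, TCT to TTT at S261F): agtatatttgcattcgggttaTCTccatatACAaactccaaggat
The changed base had 10 reads at S261F and 11 at T264I, with 0 reference reads at either. Its nearest paralog BGLU10, with 89.59% identity, has the same serine and threonine.

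Other genes were homozygous in 1 line and had a further change in another line, in each case heterozygous and line-specific there. PAL1 and GRL, homozygous in 2-69, had P709L and D979N in 3-72, with 9 changed and 12 reference reads at the change of PAL1 and 10 changed and 8 reference reads at that of GRL. PCN, a WD-40 repeat protein, had E680K homozygous in 2-69 with 47 changed reads, and P432L in 2-20 with 12 changed and 10 reference reads. AT3G56840, annotated as an oxidoreductase, had D398N homozygous in 2-69 with 27 changed reads, and R315C in 3-72 with 7 changed and 4 reference reads. AT1G03370, annotated as a C2- and GRAM-domain protein, had L97F homozygous in 3-72 with 20 changed reads, and A777V in 2-69 with 25 changed and 23 reference reads. In these genes the heterozygous call had a quality of at least 50. In the following genes each heterozygous call had a quality below 50. AT4G31250, a leucine-rich repeat kinase, had G284D homozygous in 2-69 with 45 changed reads, and G224S in 3-72 at a quality of 27. AT1G52450, annotated as related to ubiquitin hydrolases, had G636D homozygous in 2-69 with 24 changed reads, and D979N in 2-20 at a quality of 3.54. AT1G76820, annotated as a translation initiation factor, had D128N homozygous in 3-72 with 21 changed reads, and K760T in 3-75 at a quality of 4.77. NRPB1 had P1710S in 3-72 at a quality of 3.54. AT2G08986 had heterozygous changes in 2-69, in 2-20 and in 3-72 itself, at qualities from 3.54 to 31.

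By keywords of the annotated gene product, 28 genes (9.894%) had the word kinase, against 5.058% of all genes and 7.386% of all coding length. Of these, 22 are protein kinases, 13 in 2-69, 0 in 2-20, 3 in 3-72 and 6 in 3-75. The other 6 are annotated as kinases of metabolites or lipids, or as similar to or binding a kinase: ADK, AT1G27070, AT2G36580, ATPI4K ALPHA, DGK6 and TKI1. Products of unknown function numbered 27 (9.541%), against 14.73% of genes and 8.503% of coding length. RNA processing held 9 genes (3.18%, against 2.004% of genes and 2.097% of coding length). Transcription factors and DNA-binding proteins numbered 10 (3.534%, against 4.325% of genes), with 1 in 2-69, 3 in 2-20, 4 in 3-72 and 2 in 3-75. That keyword count takes in the chaperonin Cpn60beta3 and misses factors such as CRF2, MYR1, AIL5 and GPRI1. Ubiquitin-related products numbered 10 (3.534%, against 3.36% of genes) and include the ubiquitin proteases UBP2 and UBP11. The translation group held 3 genes (1.06%, against 2.573% of genes and 1.952% of coding length) and includes TFIIS. Glycosyl transferases and hydrolases came to 9 (3.18%, against 3.356% of genes) and transporters to 8 (2.827%, against 3.043% of genes). Leucine-rich repeat proteins came to 7 (2.473%, against 1.545% of genes and 2.923% of coding length), and proteases also to 7 (2.473%, against 2.066% of genes and 2.371% of coding length). The shares of ubiquitin-related products, glycosyl transferases and hydrolases, transporters and proteases thus lay near those of all genes. In no family were 158 genes (55.83%, against 54.94% of genes). None of these family shares was tested. The median protein had 500 residues, against 348 for all genes, and a longer coding sequence offers more sites, so the share of coding length is the nearer yardstick. Of the 152 genes whose annotation named a place in the cell, 30 (19.74%) named the chloroplast, against 16.15% of all genes with such a note and 16.81% of coding length. The nucleus was named by 7 (4.605%, against 8.355% and 9.135%), the plasma membrane by 18 (11.84%, against 10.1% and 12.63%) and the mitochondrion by 6 (3.947%, against 4.684% and 4.881%). These shares were not tested either.

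**Figure D4:**
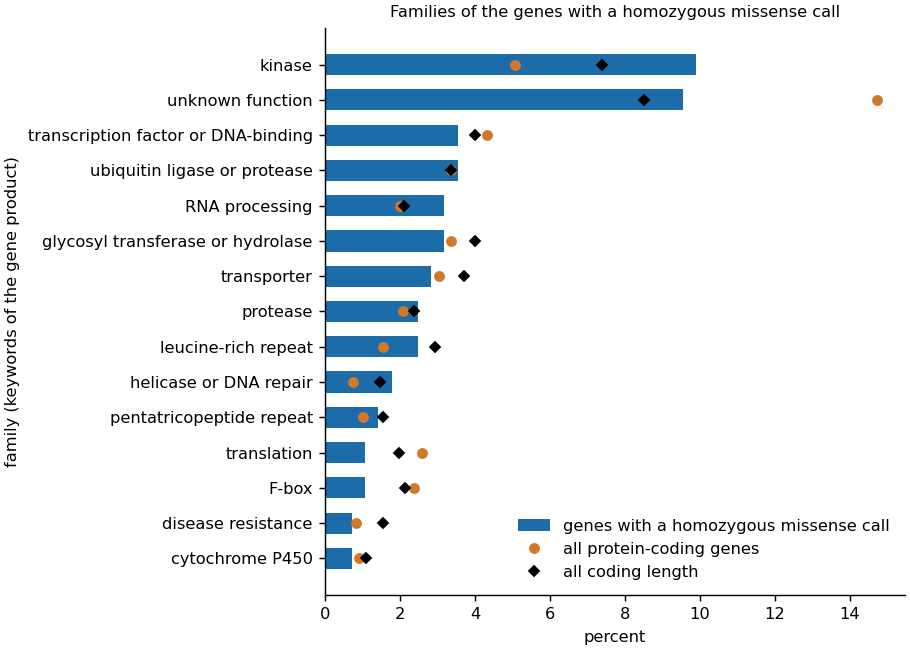
Bars give the percent of the 283 genes in each family by keyword, orange points the percent of all protein-coding genes and black diamonds the percent of all coding length. Kinases lead at 9.894%, above both marks. Products of unknown function lie below their share of genes and above that of coding length. The shares were not tested.

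Several changed genes are paralogs of each other. A paralog here is a protein of the same species with at least 30% identity over at least 50% of the length. The search kept at most 50 matches per protein, and 15 pairs of the changed genes met the limits among them. Pairs in large families can be missed, and the number expected for other genes was not computed. CLPP3 of 2-69 and CLPP4 of 3-72, with 45.78% identity, encode subunits of the plastid Clp protease.
CLPP3 (chr1:24864098-24864142, minus strand, 2-69, D269N, GAT to AAT): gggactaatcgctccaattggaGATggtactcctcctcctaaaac
CLPP4 (chr5:18397228-18397272, plus strand, 3-72, M181I, ATG to ATA): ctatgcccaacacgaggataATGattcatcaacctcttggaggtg
CLPP3 had 41 changed reads and CLPP4 had 9, both with 0 reference reads, and each protein has, at the aligned position, the residue that the other lost. Other pairs were AT2G15180 of 3-72 and AT3G43470 of 2-69 (64.29% identity), AT1G64583 of 2-69 and AT5G16640 of 2-20 (56.29%), and BGLU12 of 2-69 and BGLU9 of 3-75 (44.05%). Among all 285 residue changes, 203 were in a protein with a paralog. The alignment covered the changed residue at 187, and at 6 of these the paralog had a gap. The nearest paralog had the unchanged residue at 121 of the 187 (64.71%, a gap counted as not identical) and the changed residue at 6.

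A few genes had reads or positions that limit the call. The genes AT4G22475 and AT4G22485 overlap on opposite strands and share 1 base change in 2-69, as do AT4G22495 and AT4G22505.
AT4G22485 (chr4:11845566-11845610, minus strand, 2-69, E297K, GAG to AAG): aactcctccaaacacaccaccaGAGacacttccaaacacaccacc
The change read as E297K in AT4G22485 is S297F in AT4G22475, and had 16 changed reads and 1 reference read. The other shared change is L412F in AT4G22495 and R64K in AT4G22505, with 28 changed reads and 1 reference read. Among the 14 calls in genes whose nearest paralog is at least 90% identical, a limit set after the reads were seen, 3 had reference reads and 11 had 0. LURE1.2, which encodes a pollen tube attractant, had 23 changed and 4 reference reads and is 95.56% identical to LURE1.5. BGLU12 had 47 changed and 3 reference reads and is 96.25% identical to BGLU13, and GolS5, a galactinol synthase, had 36 changed and 2 reference reads and is 90.69% identical to GolS6. The protein of AT5G45775 is 100% identical to its nearest paralog, and its call had 28 changed and 0 reference reads. The other 12 of the 15 calls with reference reads were in genes with no paralog that close, among them CRK25 with 39 changed reads and 1 reference read and a nearest paralog of 56.53% identity. AT2G08986 in 3-72 had 193 changed and 8 reference reads at a depth of 221, in a cluster of calls within 3 Mb of the centromere, whereas the median depth was 14 over the homozygous missense calls of that line described here and 17 over all its calls. Whether reads of a relative were placed at these sites was not tested.

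Homozygous and heterozygous missense calls were then compared within each line, to see whether the homozygous changes differ in kind. The measures were the missense share of missense plus synonymous calls, the share of changes with a negative BLOSUM62 score, and the share at a residue identical in the nearest paralog. For the last, a residue facing a gap in the paralog counted as not identical. None of the 12 two-sided Fisher's exact tests passed (smallest p = 0.1402, Benjamini-Hochberg adjusted p from 0.7017 to 1, and 0 with an unadjusted p under 0.05). A base change in overlapping genes counted once per gene, so the 102 homozygous missense changes of 2-69 came from 100 base changes. The missense share was 102 of 152 homozygous and 128 of 171 heterozygous calls in 2-69, a difference of -7.75 percentage points (95% Newcombe interval -17.5 to 2.13). In 2-20 it was 60.0% of homozygous and 68.8% of heterozygous calls (-8.83, interval -27.8 to 8.39). In 3-72 it was 76.2% of homozygous and 67.2% of heterozygous calls (8.93, -2.76 to 20.2), and in 3-75 it was 71.3% of homozygous and 82.4% of heterozygous calls (-11.1, -23.0 to 3.61). Among all possible G/C to A/T changes of coding sequence, 68.01% of missense plus synonymous changes are missense.

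A negative BLOSUM62 score was found in 44.1% of homozygous and 41.4% of heterozygous changes in 2-69, a difference of 2.71 points (-9.96 to 15.4). In 2-20 it was found in 33.3% of homozygous and 34.0% of heterozygous changes (-0.629, -20.1 to 23.8), in 3-72 in 39.8% of homozygous and 41.5% of heterozygous changes (-1.70, -16.3 to 13.0), and in 3-75 in 40.2% of homozygous and 40.5% of heterozygous changes (-0.232, -18.3 to 17.0). The nearest paralog kept the residue at 67.6% of homozygous and 64.7% of heterozygous changes in 2-69 (2.90, -11.9 to 17.3). The shares were 63.6% of homozygous and 71.8% of heterozygous changes in 2-20 (-8.20, -37.9 to 15.9), and 64.8% of homozygous and 59.7% of heterozygous changes in 3-72 (5.17, -12.6 to 22.4). In 3-75 they were 60.8% of homozygous and 67.7% of heterozygous changes (-6.96, -26.3 to 14.5). Each of the 12 intervals reaches beyond 10 points in at least 1 direction, and linked calls make them too narrow. The tests therefore do not show that homozygous and heterozygous changes are alike.

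**Figure D5:**
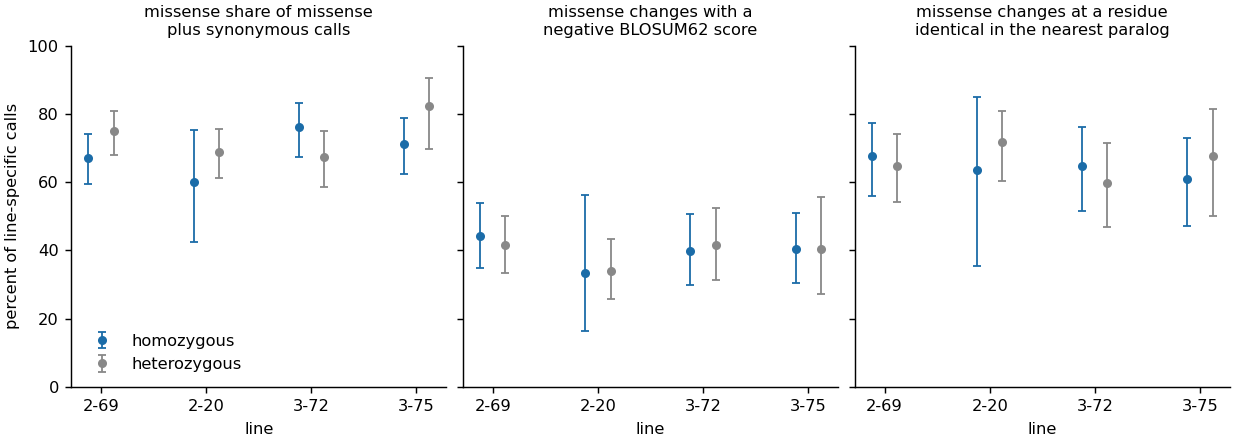
Points give the percent of line-specific calls for the 3 measures, homozygous in blue left of heterozygous in grey, with 95% Wilson intervals. The intervals of the homozygous and heterozygous calls overlap in all 4 lines for each measure.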

How the data were processed

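Variant calls of 5 genomic libraries were used as deposited by the authors, 1 file per library. Per the file headers the calls were made with samtools 0.1.19-44428cd and written as VCF 4.1, and the deposited quality is a phred-scaled score. Per the submitters' processing notes the build was TAIR10, and Bowtie and SAMtools are among the tools named. Alignment settings and filters were not given in the sources used here. All 5 chromosome lengths equalled those of the RefSeq TAIR10.1 assembly, with 0 reference base mismatches.

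Calls were annotated on the longest coding sequence of each gene with Python 3.11.15, numpy 2.4.6 and Biopython 1.88. A call was line-specific if no other library had a call at the same position with the same called base or bases. Counted by position alone, 3-72 had 82 genes and not 83. A position of that line thus also had a call of other bases in another library. The counts of the other lines stayed the same. Depth is the header's raw read depth, and reads per base are its high-quality reads. Nearest paralogs came from blastp 2.17.0 (e-value 1e-05). Fisher's exact tests used scipy 1.17.1, adjusted over 12 tests. They were checked on simulated independent calls, a check that does not cover linked calls. The tests here count linked calls of 1 library per line, once per gene hit, so p-values describe calls and not plants. Figures were drawn with matplotlib 3.10.9.

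Genes named by rule were members of the 4 lists, genes with several homozygous changes or with a further line-specific change in another line, up to 10 genes with a symbol per line with the lowest BLOSUM62 score, the best-supported members of each family, and genes beside the limits. The members and lists were chosen with earlier results of these data known. Alternatives changed the limits, the definition of a line-specific call, the base changes, the regions and the lines taken.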

Additional observations from a re-analysis of the deposited data

Results flagged for a closer look

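In each of the 3 comparisons of homozygous with heterozygous calls, some lines differed in one direction and others in the opposite one, and the difference between lines was not tested. The missense share was higher among homozygous calls by 8.93 percentage points in 3-72, and the difference was -11.1 points in 3-75. The share of negative BLOSUM62 scores differed by 2.71 points in 2-69 and by -1.70 points in 3-72. The share of changes at a residue identical in the nearest paralog differed by 5.17 points in 3-72 and by -8.20 points in 2-20. None of these differences passed its own test within the line.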

How the results depend on the processing

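Under other settings, 60 counts of genes stayed within 1.5 times the reported count and 4 did not. With at least 20 reads the count was 14 in 3-72, 43 in 3-75 and 169 in all. With each line left out in turn, the total lay between 181 (without 2-69) and 265. The tests were rerun with at least 20 reads, with G/C to A/T changes alone, outside clusters of calls, without the pericentromeres and, for the paralog share alone, with paralogs of at least 50% identity, and none of the differences passed in these (smallest adjusted p = 0.6991). The other settings were run for the counts of genes alone. Of the differences recomputed, 45 kept their sign, 6 changed it and 1 was 0, the BLOSUM62 difference of 3-72 restricted to G/C to A/T changes. With at least 20 reads, the BLOSUM62 difference of 2-20 was 15.1 points and its paralog difference 2.78. Restricted to G/C to A/T changes, that of 3-75 was 0.482. Without the pericentromeres it was 1.96 in 2-20, 1.43 in 3-72 and 1.45 in 3-75. Fewer calls entered each of these comparisons, and the cause was not tested. No paired analysis was possible because each line has 1 library. The replicate number 1 that these libraries share does not mark a pairing. Among the lines, the count of 3-72 fell most with the limit of 20 reads, from 83 to 14. Changes that were never called for want of reads were not assessed.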
